A study of Homo sapiens with 18 samples.

Results

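The genes described are taken by symbol as hosts of small nucleolar RNAs (snoRNAs), which does not show that each holds a snoRNA. They are every gene whose symbol is SNHG (small nucleolar RNA host gene) followed by a number, together with GAS5, ZFAS1, DANCR, CYTOR and MEG8. This choice by symbol gave 33 of the 60649 genes in the count table, and 28 of the 33 passed a filter on low counts that 15390 genes passed in all. RNA came from LNCaP, an androgen-responsive line of human prostate adenocarcinoma, in 18 libraries that form 6 groups of 3 biological replicates. Cells were transfected with 1 pool of siRNAs (SmartPool) against UPF1, with 1 against RCOR1, or with a non-targeting control pool, and all groups were moved to androgen-deprived medium the day after. From 48 h after transfection, cells of each siRNA arm received either 5 nM of the synthetic androgen R1881 or ethanol as vehicle, for 48 h. The 6 groups are therefore control siRNA in vehicle and in R1881, UPF1 siRNA in vehicle and in R1881, and RCOR1 siRNA in vehicle and in R1881. Each target was met by a single pool, so that effects of the pool other than on its target cannot be told apart from loss of the target.

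SnoRNAs guide the chemical modification and cleavage of ribosomal RNA, and in human cells most of them are cut out of the introns of other genes. In a protein-coding host the exons make a message. In the genes considered here the exons are spliced into an RNA that mostly codes for no protein. The introns of most of these genes carry snoRNAs. Many such spliced RNAs are engaged by ribosomes on short reading frames and are known as substrates of nonsense-mediated decay (NMD), the pathway built around the RNA helicase UPF1. GAS5 is the textbook case, named for its accumulation in growth-arrested cells, and its RNA can bind steroid receptors. Several hosts, like ribosomal protein genes, begin with a 5′ terminal oligopyrimidine (TOP) tract, a C at the first base followed by further C and T letters, through which growth signals control use of the transcript by ribosomes. RCOR1 (CoREST) is the scaffold of a histone demethylase and deacetylase complex.

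Totals ran from 10299607 to 17338235 counts per library. The siRNA against UPF1 left 22.8 ± 2.79 CPM (the count as a rate per library total, with totals scaled by the trimmed mean of M values, TMM; SD, n = 3) of UPF1 RNA against 134 ± 17.5 with control siRNA in vehicle, and 26.3 ± 0.674 against 149 ± 13.1 in R1881. RCOR1 stood at 12.8 ± 3.44 against 99.6 ± 8.82 CPM in vehicle and at 12.5 ± 0.296 against 79.7 ± 9.96 in R1881. All 10 markers of luminal prostate cells passed the filter. Of 15 markers of other cell types 6 passed it, and their sum was 49.1 to 55.2 CPM in the UPF1 siRNA libraries, 24.7 to 39.4 with control siRNA and 23.5 to 39.6 with RCOR1 siRNA, with 6 to 9 of the 15 at 0 in each group and CD3E, COL1A2, TP63 and CHGA at 0 in every library. The part of these markers in the results was not tested. In base composition, UPF1 siRNA replicates 1 and 2 in R1881 stood apart: relative to the average library, their genes under 40% GC had medians of -0.628 and -0.437 on the log2 CPM scale, against -0.322 to 0.417 in the others. In comparisons with this group, where leaving out both libraries lost a call or moved a called value or a count by over 1.5 times, the value without them is also given, in a fit where the library that is left is assumed to vary like the other groups. The median GC content of the 28 hosts was 48.1%, and that of all genes tested was 48.1%.

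The first bases of the hosts are shown because they tell which hosts resemble ribosomal protein genes at their start, a group described further on. The windows hold 20 bases before and 20 bases from the RefSeq start onward (GRCh38.p14, 5′ to 3′ on the transcribed strand). Capitals mark a run that opens with C and goes on with at least 4 further C or T letters, searched on the transcribed strand only and within 5 bases of the start. The first 8 hosts were lower with UPF1 siRNA in both media, and the other 5 were not.
SNHG4 (chr5:139274081-139274120, plus strand): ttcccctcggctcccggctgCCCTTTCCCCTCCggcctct
SNHG12 (chr1:28581854-28581893, minus strand): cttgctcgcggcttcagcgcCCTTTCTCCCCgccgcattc
SNHG19 (chr16:2155339-2155378, minus strand): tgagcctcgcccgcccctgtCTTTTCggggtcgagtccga
SNHG16 (chr17:76557744-76557783, plus strand): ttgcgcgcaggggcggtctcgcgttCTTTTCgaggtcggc
DANCR (chr4:52712374-52712413, plus strand): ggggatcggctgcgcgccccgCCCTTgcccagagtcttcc
SNHG8 (chr4:118278742-118278781, plus strand): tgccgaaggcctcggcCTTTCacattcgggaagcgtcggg
SNHG1 (chr11:62855866-62855905, minus strand): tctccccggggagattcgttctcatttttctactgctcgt
SNHG3 (chr1:28505923-28505962, plus strand): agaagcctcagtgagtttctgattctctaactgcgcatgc
ZFAS1 (chr20:49278622-49278661, plus strand): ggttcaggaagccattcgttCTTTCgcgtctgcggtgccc
SNHG5 (chr6:85678714-85678753, minus strand): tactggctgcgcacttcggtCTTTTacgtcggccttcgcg
GAS5 (chr1:173869026-173869065, minus strand): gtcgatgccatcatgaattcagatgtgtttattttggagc
SNHG29 (chr17:16438967-16439006, plus strand): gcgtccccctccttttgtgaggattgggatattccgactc
SNHG11 (chr20:38446634-38446673, plus strand): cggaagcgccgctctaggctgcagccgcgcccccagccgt
Such a run began at the start itself in 7 of the 28 hosts with a RefSeq promoter (25%), namely SNHG12, SNHG18, SNHG4, SNHG32, SNHG5, SNHG19 and ZFAS1. They are not the same 28 hosts as those tested, since SNHG18 is among them. The share was 63.8% for 69 ribosomal protein genes with a promoter and 4.07% over all 35116 RefSeq promoters. Within 5 bases of the start it was found in 13 of the 28 hosts (46.4%), in 75.4% of the ribosomal protein genes and in 21.1% of all promoters. Among the hosts tested, it lay within 5 bases in 6 of the 9 that were lower with UPF1 siRNA in both media and in 6 of the 15 others with a promoter, and at the start itself in 3 of 9 and 3 of 15. These are counts of letters and no test was made of them. RefSeq starts can differ from the ends in GENCODE 29. Those of GAS5, SNHG14, SNHG27, SNHG3, DANCR, SNHG16 and SNHG4 lie outside the GENCODE 29 gene, some by a few bases. The counts of such runs thus depend on the start used. SNHG14, also lower in both media, had no such run.

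In control cells in vehicle, the hosts covered a wide range of levels per length of annotated exon. SNHG29, which carries SNORD49A, SNORD49B and SNORD65, stood highest at 129 CPM per kb, followed by SNHG19 at 97.6, SNHG8 at 90.4, DANCR at 60.6 and SNHG16 at 39.8. ZFAS1 stood at 27.8, GAS5 at 21.9, SNHG1 at 20.3, SNHG6 at 19.8 and SNHG4 at 19.6 CPM per kb. The lowest were SNHG26 at 0.33 and CYTOR at 0.126. On raw counts SNHG29 and SNHG14, a transcript that runs through the SNORD115 and SNORD116 region towards UBE3A, held 48.2% of all host counts. Together the hosts took 0.215 to 0.223% of the counts with control siRNA in vehicle, 0.169 to 0.171% with control siRNA in R1881, 0.145 to 0.168% with UPF1 siRNA in vehicle and 0.142 to 0.148% with UPF1 siRNA in R1881. With RCOR1 siRNA the share was 0.214 to 0.227% in vehicle and 0.186 to 0.193% in R1881. These are shares of raw totals, without the TMM scaling used in the tests. For R1881 with control siRNA, scaling by library size alone shifted the median of all genes by -0.242. For UPF1 siRNA the shift was -0.031 in vehicle and 0.118 in R1881. The difference in share between vehicle and R1881 with control siRNA is therefore not a change of the hosts alone. The part of the scaling in the other differences in share was not tested. The 5 hosts that were not tested had 16 (SNHG28), 15 (SNHG27), 10 (SNHG18), 16 (SNHG22) and 8 (MEG8) counts over the 18 libraries together. All 33 have several exons in GENCODE 29; 10 share exon bases with another gene on the same strand and 16 on the opposite strand, and the strand setting of the counting is not given in the sources used here.

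Lowering UPF1 was followed by less, not more, RNA counted for many hosts. Counts were per gene, and annotated exons cover most of some hosts, such as 3756 of the 3927 bases of SNHG1. Spliced RNA and RNA that kept an intron therefore cannot be told apart in the host values. In vehicle, 13 of the 28 hosts fell and 1 rose with UPF1 siRNA (edgeR adjusted p under 0.05), where 16% of all genes tested fell and 18.5% rose. The median log2 fold change of the hosts was -0.348, beside 0.032 over all 15390 genes. The hosts that fell furthest were SNHG4 (-1.22), SNHG16 (-1.14), SNHG3 (-1.04) and SNHG8 (-1.004), which stood at 43.0, 45.5, 48.5 and 49.9% of the control level. In bulk RNA, fewer cells that hold a transcript and less of it per cell cannot be told apart.

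**Figure D1:**
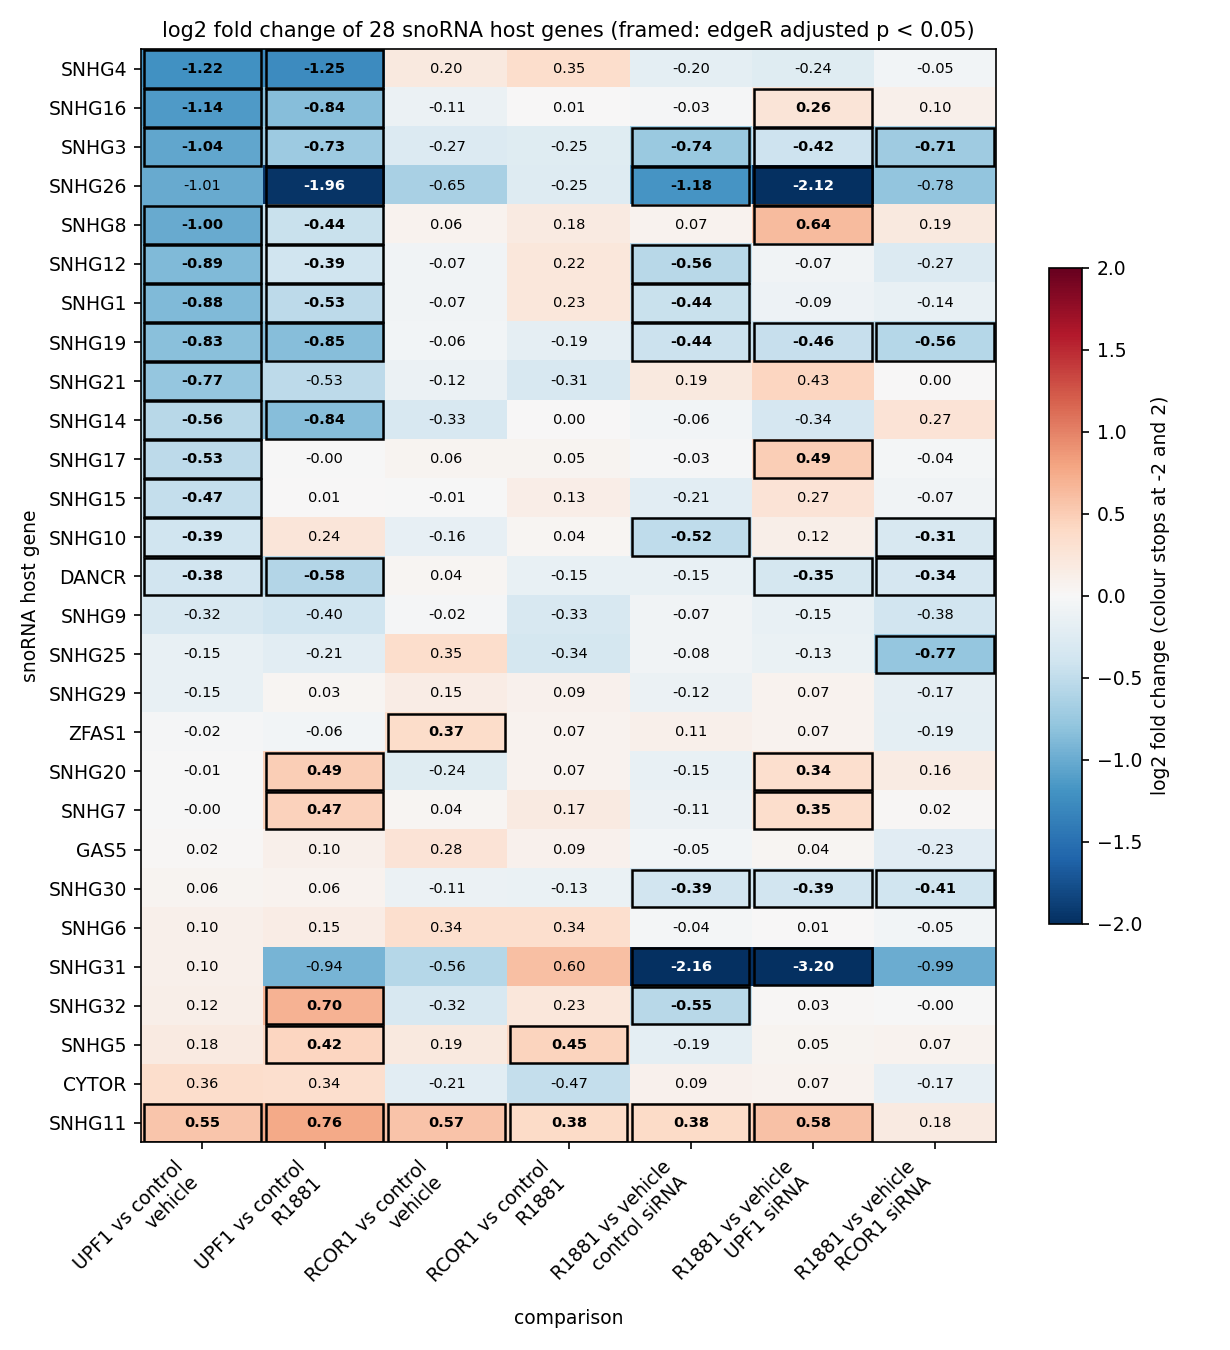
Each cell gives the log2 fold change of 1 host (rows, ordered by the first column) in 1 comparison (columns), in blue where lower and red where higher, with a frame where the edgeR adjusted p was under 0.05. The first column, UPF1 siRNA in vehicle, has 13 framed blue cells and 1 framed red cell, and the RCOR1 siRNA columns have 2 framed red cells each.

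SNHG4 (GRCh38 chromosome 5, 139274102 to 139284899), whose introns hold SNORA74A and SNORA74D, stood at 86.7, 86.8 and 88.8 CPM with control siRNA in vehicle and at 29.8, 35.9 and 47.1 CPM with UPF1 siRNA. The ranges did not overlap, and the log2 fold change was -1.22 ± 0.12 (SE, edgeR adjusted p = 1.3e-06). SNHG16 (GRCh38 chromosome 17, 76557766 to 76565348), host of SNORD1A, SNORD1B and SNORD1C, stood at 199, 235 and 206 CPM in control cells and at 88.5, 94.7 and 108 CPM with UPF1 siRNA. All 3 UPF1 siRNA libraries lay far below the lowest control, with a log2 fold change of -1.14 ± 0.078 (SE, edgeR adjusted p = 4.18e-08). SNHG3 (GRCh38 chromosome 1, 28505980 to 28510892), host of the SNORA73 pair, fell from 44.0, 55.1 and 40.7 to 22.6, 21.5 and 23.8 CPM, a log2 fold change of -1.04 ± 0.12 (SE, edgeR adjusted p = 4.83e-06). SNHG8, host of SNORA24, went from 78.9, 83.0 and 88.4 to 35.6, 42.1 and 47.1 CPM, a log2 fold change of -1.004 ± 0.10 (SE, edgeR adjusted p = 1.97e-06). In both hosts every UPF1 siRNA library lay below every control library.

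SNHG1 (GRCh38 chromosome 11, 62851988 to 62855914), the host of SNORD22 and of several further box C/D snoRNAs, stood at 76.5, 78.7 and 73.9 CPM in control cells in vehicle. With UPF1 siRNA it stood at 36.3, 40.1 and 48.2 CPM, a log2 fold change of -0.88 ± 0.089 (SE, edgeR adjusted p = 1.93e-06), without overlap. DANCR (GRCh38 chromosome 4, 52712404 to 52720351), host of SNORA26 and known as an RNA that holds back differentiation, stood at 124, 161 and 131 CPM in control cells and at 102, 105 and 112 with UPF1 siRNA. Its fall was small and the groups did not overlap, with a log2 fold change of -0.38 ± 0.10 (SE, edgeR adjusted p = 0.00985). It was not called when control replicate 2 in vehicle was left out (edgeR adjusted p = 0.0617). The other hosts that fell were SNHG12 (-0.89), SNHG19 (-0.83), SNHG21 (-0.77), SNHG14 (-0.56), SNHG17 (-0.53), SNHG15 (-0.47) and SNHG10 (-0.39). The call of SNHG14, whose libraries ranged from 396 to 611 CPM in control cells and from 238.5 to 395.8 CPM with UPF1 siRNA and just overlapped, was lost on leaving out any 1 of 10 of the 18 libraries (edgeR adjusted p up to 0.197). Those of SNHG21 and SNHG15 were each lost without either of 2 libraries, control replicate 3 or UPF1 siRNA replicate 3 for SNHG21 and control replicate 2 or UPF1 siRNA replicate 2 for SNHG15, and that of SNHG10 without control replicate 2, all in vehicle (edgeR adjusted p up to 0.12, 0.0787 and 0.0546). SNHG14 and SNHG21 were also not called when only the groups compared entered the fit (edgeR adjusted p = 0.059 and 0.0545). SNHG26, host of SNORD93, was at -1.01 ± 0.41 (SE) in vehicle and did not pass the test (edgeR adjusted p = 0.0643), with 0.642 to 1.06 CPM with control siRNA and 0.263 to 0.577 with UPF1 siRNA, which do not overlap.

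In R1881, which used separate libraries, 10 hosts fell and 5 rose with UPF1 siRNA, beside 15.7% and 17.6% of all genes tested. The median over the hosts was -0.132, beside -0.003 over all genes. It was -0.042 without UPF1 siRNA replicate 2, -0.064 without control replicate 3 and -0.223 without UPF1 siRNA replicate 1, all in R1881, and -0.18 without UPF1 siRNA replicates 1 and 2 together. Of the 13 hosts lower in vehicle 9 were also lower here, which are 9 of the 10 lower in R1881: SNHG4 (-1.25), SNHG19 (-0.85), SNHG14 (-0.84), SNHG16 (-0.84), SNHG3 (-0.73), DANCR (-0.58), SNHG1 (-0.53), SNHG8 (-0.44) and SNHG12 (-0.39). The matching overlap over all genes is not given here, so whether this overlap is particular to the hosts cannot be told. SNHG4 stood at 74.4, 79.5 and 74.5 CPM with control siRNA and at 29.9, 32.4 and 33.5 with UPF1 siRNA, a log2 fold change of -1.25 ± 0.12 (SE, edgeR adjusted p = 1.82e-06). SNHG16 stood at 215, 206 and 207 CPM against 119, 116 and 114, a log2 fold change of -0.84 ± 0.077 (SE, edgeR adjusted p = 1.26e-06). SNHG1 stood at 56.0, 57.1 and 55.3 CPM against 37.9, 38.3 and 40.7, a log2 fold change of -0.53 ± 0.089 (SE, edgeR adjusted p = 0.000344). In these hosts the UPF1 siRNA libraries again lay below all controls. DANCR stood at 139, 116 and 119 CPM with control siRNA and at 83.0, 86.4 and 80.5 with UPF1 siRNA, a log2 fold change of -0.58 ± 0.10 (SE, edgeR adjusted p = 0.000602). SNHG19, a short host of SNORD60, stood at 26.5, 23.6 and 23.9 CPM against 14.2, 14.8 and 11.9, a log2 fold change of -0.85 ± 0.12 (SE, edgeR adjusted p = 6.66e-05). SNHG14 ranged widely, at 379, 561 and 507 CPM against 230.3, 244 and 332, a log2 fold change of -0.84 ± 0.21 (SE, edgeR adjusted p = 0.00596).

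The falls of SNHG4, SNHG16, SNHG19, SNHG3, DANCR, SNHG1 and SNHG8 in R1881 were also called without replicates 1 and 2 of the UPF1 siRNA group, where they were -1.22, -0.91, -1.09, -0.67, -0.67, -0.50 and -0.53. SNHG14 was then at -0.57 and SNHG12 at -0.52, neither called (edgeR adjusted p = 0.205 and 0.129). That of SNHG12 was lost in 4 further cases, without control replicate 2 or 3 or UPF1 siRNA replicate 1 or 3 in R1881 (edgeR adjusted p up to 0.12), and with DESeq2, library size alone, no filter or only the groups compared (adjusted p up to 0.249 in edgeR with no filter); its counts were 47 to 79 per library. SNHG26 had the steepest value, -1.96 ± 0.64 (SE, edgeR adjusted p = 0.0268), from 8, 5 and 2 counts with control siRNA to 2, 1 and 1 with UPF1 siRNA. At so few counts the call was lost without any 1 of 5 of the 6 libraries, all but control replicate 3, and without both UPF1 siRNA replicates 1 and 2 (edgeR adjusted p = 0.25), and DESeq2 did not make it (adjusted p = 0.0633). Of the hosts lower in vehicle and not called here, SNHG15 was at 0.006 and SNHG17 at -0.001, with overlapping groups (edgeR adjusted p = 0.979 and 0.996), and SNHG21 was at -0.53 (edgeR adjusted p = 0.0984) without overlap. SNHG10, the remaining one, was at 0.24 (edgeR adjusted p = 0.11).

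**Figure D2:**
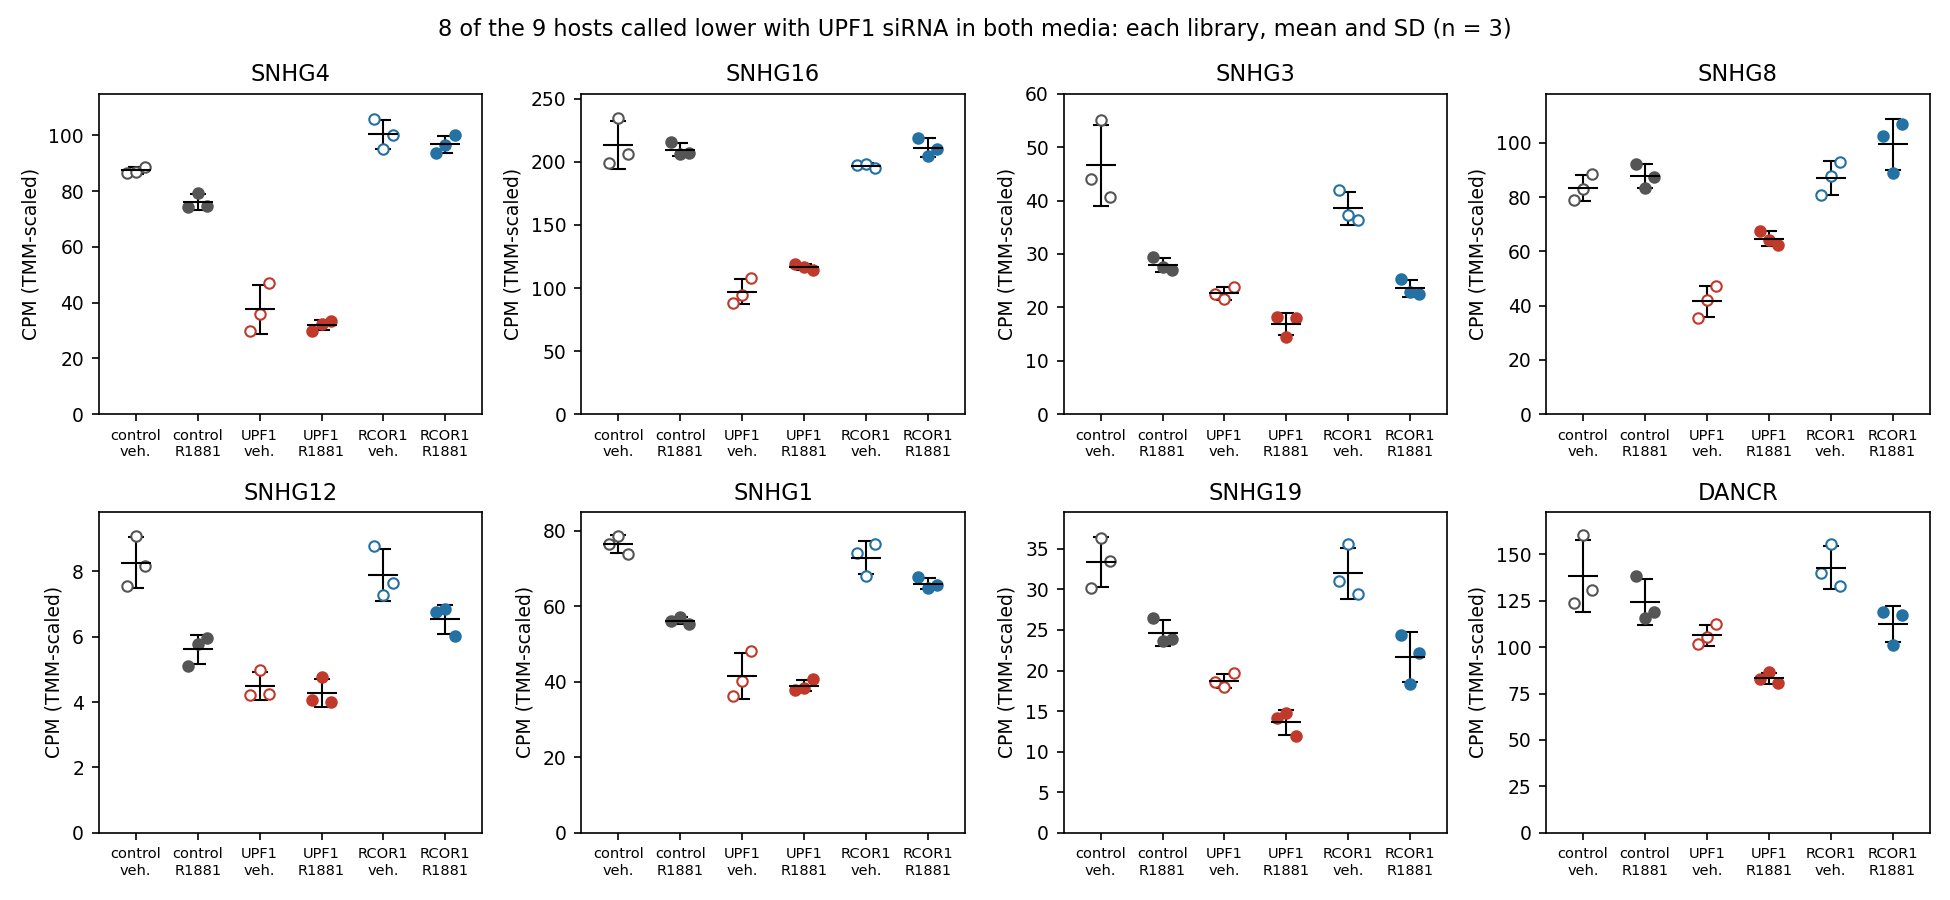
Each panel shows 1 host, with CPM on the vertical axis and the 6 groups along the horizontal axis. Points are libraries (open in vehicle, filled in R1881), the long bar is the mean and the whiskers the SD over 3 libraries. In all 8 panels the red UPF1 siRNA points lie below the grey control points of the same medium; RCOR1 siRNA is in blue.

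GAS5 and ZFAS1, hosts often named as decay substrates, were called in neither medium. GAS5 (GRCh38 chromosome 1, 173863900 to 173868882) stood at 72.0, 85.2 and 81.0 CPM with control siRNA and at 75.9, 77.1 and 88.0 CPM with UPF1 siRNA in vehicle. In R1881 it stood at 79.0, 73.2 and 78.4 CPM against 87.2, 83.8 and 75.9. The groups overlapped in both media, with log2 fold changes of 0.02 ± 0.086 (SE, edgeR adjusted p = 0.905) and 0.10 ± 0.086 (SE, edgeR adjusted p = 0.402). ZFAS1 (GRCh38 chromosome 20, 49278178 to 49295738), which lies opposite ZNFX1 and holds the SNORD12 family, stood at 57.8, 65.6 and 63.8 CPM against 58.8, 64.1 and 62.0 in vehicle. In R1881 it stood at 66.1, 65.3 and 70.6 CPM against 67.5, 62.6 and 64.0. Its groups also overlapped, with log2 fold changes of -0.02 ± 0.076 (SE, edgeR adjusted p = 0.879) and -0.06 ± 0.075 (SE, edgeR adjusted p = 0.591). SNHG6 (GRCh38 chromosome 8, 66921684 to 66926398), host of SNORD87, stood at 23.6, 22.8 and 27.7 CPM against 24.5, 27.3 and 27.4 in vehicle and at 21.6, 23.2 and 27.1 against 25.2, 28.3 and 26.2 in R1881. Its log2 fold changes were 0.10 ± 0.11 (SE, edgeR adjusted p = 0.553) and 0.15 ± 0.11 (SE, edgeR adjusted p = 0.328), with overlap in both media. SNHG29, the most abundant host per length, had a log2 fold change in vehicle of -0.15 (edgeR adjusted p = 0.138), and in R1881 one of 0.03 (edgeR adjusted p = 0.775). A value that misses the threshold does not show that these hosts were unchanged.

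SNHG11 (GRCh38 chromosome 20, 38446578 to 38450921), host of SNORA60 and SNORA71E, was the host that rose in both media. It stood at 8.75, 10.7 and 7.98 CPM with control siRNA and at 13.5, 14.1 and 12.8 with UPF1 siRNA in vehicle, and at 12.8, 11.0 and 11.8 against 21.0, 20.3 and 19.1 CPM in R1881. The groups did not overlap in either medium, and the log2 fold changes were 0.55 ± 0.11 (SE, edgeR adjusted p = 0.000903) and 0.76 ± 0.11 (SE, edgeR adjusted p = 6.2e-05). Without replicates 1 and 2 of the UPF1 siRNA group in R1881 the second was 0.65 (edgeR adjusted p = 0.0212). SNHG32 (0.70), SNHG20 (0.49), SNHG7 (0.47) and SNHG5 (0.42) rose in R1881. Each of these 4 lost its call without those replicates (edgeR adjusted p = 0.17, 0.261, 0.319 and 0.0997), and SNHG32 also without control replicate 2 in R1881. SNHG5, host of SNORD50B, stood at 24.4, 28.9 and 31.1 CPM with control siRNA and at 35.1, 40.7 and 37.1 with UPF1 siRNA in R1881. Those ranges did not overlap. In vehicle SNHG32, SNHG20, SNHG7 and SNHG5 were at 0.12, -0.01, -0.003 and 0.18 and were not called. The remaining hosts that were called in neither medium were SNHG9 (-0.32 in vehicle and -0.40 in R1881), SNHG25 (-0.15 and -0.21), SNHG30 (0.06 and 0.06), CYTOR (0.36 and 0.34) and SNHG31 (0.10 and -0.94).

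**Figure D3:**
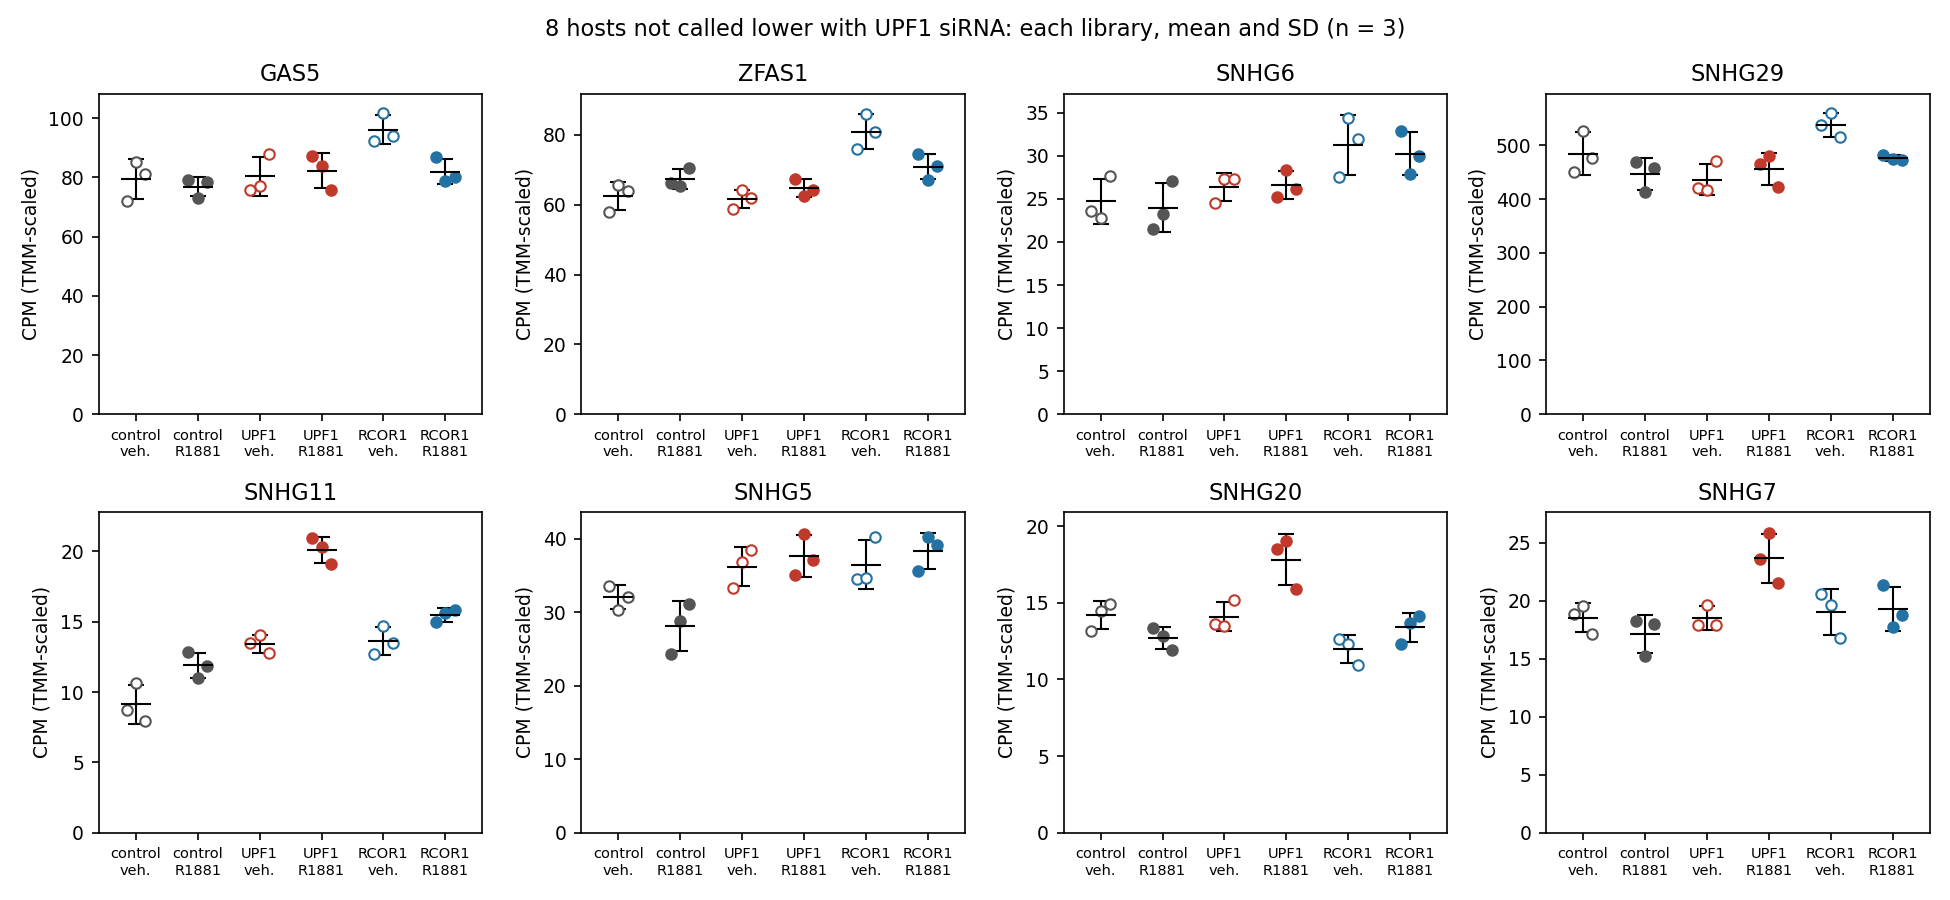
Panels as in the plot of hosts that fell, for 8 hosts not called lower with UPF1 siRNA. In GAS5, ZFAS1, SNHG6 and SNHG29 the red UPF1 siRNA points overlap the grey control points, and in SNHG11 all red points lie above the controls of the same medium.

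**Figure D4:**
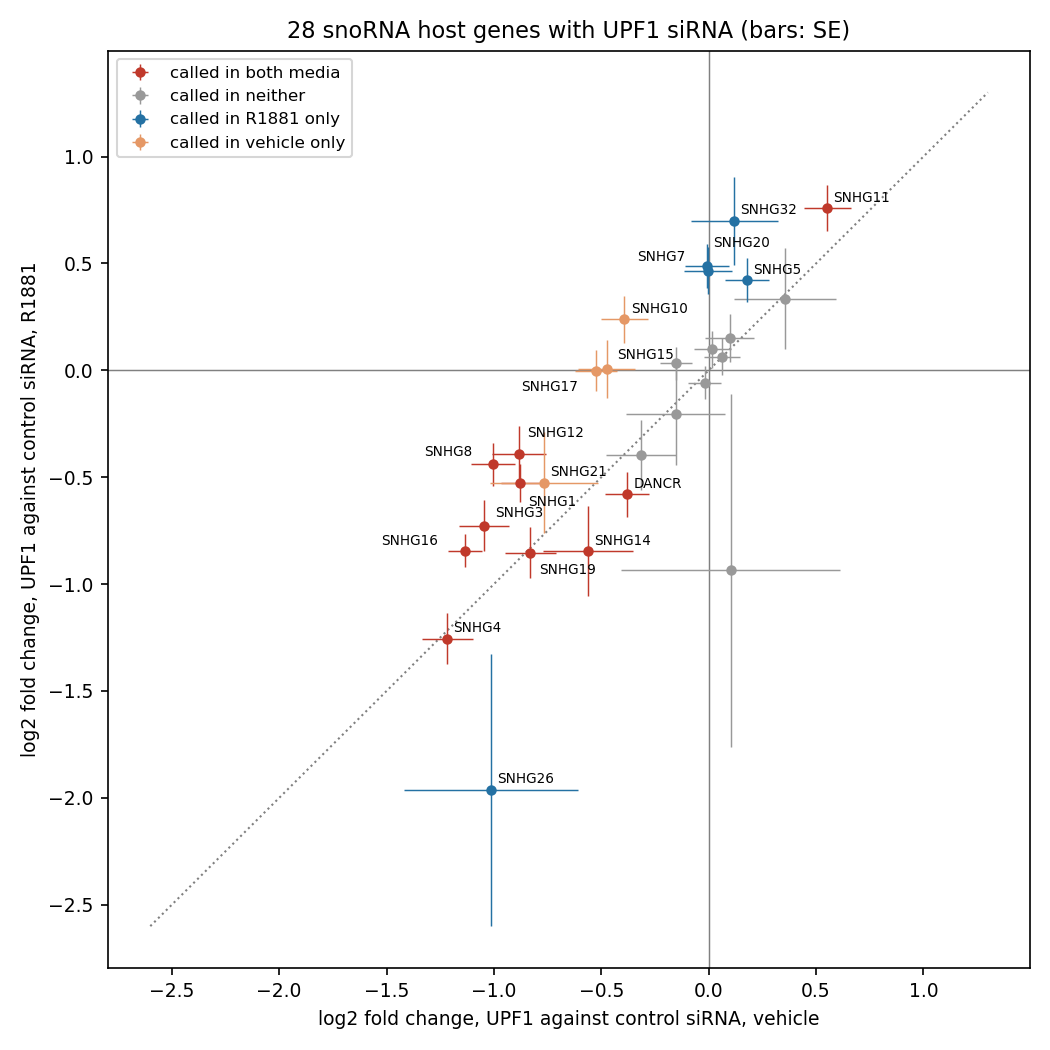
Each point is 1 of the 28 hosts, with the log2 fold change of UPF1 against control siRNA in vehicle on the horizontal axis and in R1881 on the vertical axis; bars are SE, the dotted line marks equal values and colours mark the media in which a host was called. The 9 hosts lower in both media lie at the lower left and SNHG11 at the upper right. Of these 9, SNHG8, SNHG16, SNHG12, SNHG1 and SNHG3 lie above the dotted line.

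The hosts that fell in vehicle had a GC content of 43.1 to 56.6% with a median of 49.1%, and the 15 others had 37.3 to 66.5% with a median of 47.1%. In R1881 the medians were 45.8% for the 10 that fell and 49.4% for the other 18. With an offset that removes each library's trend of level against GC content, edgeR called 15 hosts in vehicle, 14 of them lower, and 16 in R1881, 11 of them lower. Genes that share exon bases with a host moved in different ways. RCC1, a chromatin-bound exchange factor that shares 242 exon bases with SNHG3 on the same strand, also fell, with -0.88 ± 0.11 in vehicle (SE, edgeR adjusted p = 1.18e-05) and -0.42 ± 0.11 in R1881 (edgeR adjusted p = 0.00809). ZNFX1, opposite ZFAS1, rose by 0.57 ± 0.094 in vehicle (SE, edgeR adjusted p = 0.000215), and in R1881 by 0.36 ± 0.094 (edgeR adjusted p = 0.00834). SNRPN, which shares 141 bases with SNHG14 on the same strand, rose by 0.47 ± 0.094 in vehicle (SE, edgeR adjusted p = 0.00109) and by 0.43 ± 0.094 in R1881 (edgeR adjusted p = 0.00237). SNHG21 shares 768 of its 1053 exon bases on the same strand with RP11-752G15.7. That gene was at -0.45 in vehicle and -0.25 in R1881 (edgeR adjusted p = 0.0681 and 0.317). SNHG16 shares 1639 of its 5362 exon bases on the opposite strand with RP11-666A8.13. This partner was at 0.94 in vehicle (edgeR adjusted p = 0.0666) and -1.12 in R1881 (edgeR adjusted p = 0.043). The second was -0.46 without UPF1 siRNA replicates 1 and 2. Without UPF1 siRNA replicates 1 and 2, RCC1 in R1881 was at -0.61 (edgeR adjusted p = 0.0386), while ZNFX1 at 0.28 and SNRPN at 0.29 were not called (edgeR adjusted p = 0.303 and 0.266). How reads over the shared bases were assigned is not given in the sources used here, and the part of the partners in the host values was not tested.

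The snoRNAs themselves were hardly counted in these libraries. Of 61 snoRNA rows that lie inside 29 of the hosts on the same strand, 39 had 0 counts in all libraries, 56 had under 100 counts, and 5 passed the filter. Rows were matched by symbols of SNORD, SNORA or SCARNA with a number, so that symbols with a hyphen were left out. GAS5, CYTOR, SNHG27 and SNHG28 had 0 such rows. SNORA16A, SNORA17B and SNORD22 occur repeatedly, and GAS5 is a known host, so the rows are not a full list of snoRNAs. For 33 of the 61, the whole snoRNA lies within annotated exons of its host, so that its reads and those of the host cannot be told apart there. SNORA73A and SNORA73B, H/ACA snoRNAs of SNHG3, were the best counted, and the counts of both fell with those of their host. Unspliced SNHG3 RNA also holds the bases of an intronic snoRNA, and its reads were not separated from those of the snoRNA. SNORA73B, which lies in an intron with none of its 204 bases in an annotated SNHG3 exon, stood at 6.82, 14.5 and 9.26 CPM with control siRNA and at 5.72, 5.37 and 4.62 with UPF1 siRNA in vehicle. In R1881 it stood at 9.44, 9.28 and 11.1 against 3.95, 4.97 and 3.57 CPM. The groups did not overlap in either medium, and the log2 fold changes were -0.96 ± 0.28 (SE, edgeR adjusted p = 0.0146) and -1.25 ± 0.29 (SE, edgeR adjusted p = 0.00369). SNORA73A, all of whose 206 bases lie in an annotated SNHG3 exon, was at -0.60 (edgeR adjusted p = 0.0368) and -0.60 (edgeR adjusted p = 0.0404). SNORA74A in SNHG4 was at -0.33 (edgeR adjusted p = 0.461) in vehicle, and it fell by 1.10 in R1881 (edgeR adjusted p = 0.0169). Without UPF1 siRNA replicates 1 and 2 in R1881, SNORA73B was at -1.51 (edgeR adjusted p = 0.0484), and SNORA73A at -1.003 and SNORA74A at -1.60 were not called (edgeR adjusted p = 0.0605 and 0.0755). SNORA71B in SNHG17 and SCARNA17 in SNHG22 were called in neither medium. None of the 5 was called for R1881 or RCOR1 siRNA.

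The machinery that makes and uses snoRNAs was measured through lists of genes. Of 19 genes for snoRNP core and assembly proteins, 9 fell and 2 rose with UPF1 siRNA in vehicle, with a median log2 fold change of -0.308. They included FBL, the methyltransferase of box C/D snoRNPs (-0.87), its partner NOP56 (-0.85), the assembly ATPase RUVBL2 (-0.76) and SHQ1, a chaperone of dyskerin (-0.69). In R1881 6 fell and 2 rose (4 and 4 with library size alone, and 3 and 0 without UPF1 siRNA replicates 1 and 2). Of 83 ribosomal protein genes tested, 73 fell and 1 rose in vehicle, with a median of -0.404, and 68 fell and 1 rose in R1881, with a median of -0.361. The 68 in R1881 became 27 with library size alone (median -0.244) and 30 without UPF1 siRNA replicates 1 and 2 (median -0.472). Their falls were of modest size, for example in RPL3 (-0.65), RPL4 (-0.58) and RPL7A (-0.56). Of 28 protein-coding snoRNA hosts other than ribosomal protein genes, 12 fell and 3 rose in vehicle (median -0.223) and 14 fell and 3 rose in R1881 (median -0.246; 7 and 1 without those replicates). Examples in vehicle were PPAN, a ribosome biogenesis factor (-1.02), the splicing factor SF3B3 (-0.95), NOP56, which is on both lists, and the translation factor EIF5, which rose (1.055). Of 9 NMD factors other than UPF1, 5 rose and 1 fell in vehicle (median 0.821) and 4 rose and 1 fell in R1881 (median 0.287; 2 and 1, with a median of 0.402, without those replicates). The kinase SMG1 (1.21), UPF3B (1.14) and SMG9 (0.94) rose and SMG8 fell (-0.89) in vehicle. Beside these counts, 16% of all genes tested fell and 18.5% rose in vehicle, and 15.7% fell and 17.6% rose in R1881.

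R1881 was followed by lower levels of hosts in control cells too. With control siRNA, 9 of the 28 hosts fell and 1 rose, beside 17.6% and 20.1% of all genes tested, and the median was -0.136 beside 0.022 over all genes. It was -0.085 without control replicate 2 in vehicle and -0.206 without control replicate 1 in R1881. SNHG31, host of SNORA70I, stood at 9.21, 3.81 and 4.95 CPM in vehicle and at 1.51, 1.31 and 1.18 in R1881. The groups did not overlap, with a log2 fold change of -2.16 ± 0.62 (SE, edgeR adjusted p = 0.0114), a call that was lost without the highest vehicle library, replicate 1 (edgeR adjusted p = 0.0681). SNHG26 stood at 1.06, 0.902 and 0.642 CPM in vehicle and at 0.577, 0.365 and 0.181 in R1881, from 2 to 16 counts per library. Its log2 fold change was -1.18 ± 0.42 (SE, edgeR adjusted p = 0.0371), lost without vehicle replicate 1 or 2 or R1881 replicate 2 or 3 (edgeR adjusted p up to 0.132) and with DESeq2 (adjusted p = 0.0942). SNHG3 fell from 44.0, 55.1 and 40.7 to 29.4, 27.6 and 26.9 CPM, a log2 fold change of -0.74 ± 0.12 (SE, edgeR adjusted p = 9.09e-05). SNHG12, host of SNORA44, SNORA61, SNORA16A and SNORD99, fell from 7.55, 9.09 and 8.16 to 5.12, 5.77 and 5.96 CPM, a log2 fold change of -0.56 ± 0.12 (SE, edgeR adjusted p = 0.00196). In both hosts the R1881 libraries all lay below the vehicle libraries. SNHG1 fell from the vehicle values given above to 56.0, 57.1 and 55.3 CPM, a log2 fold change of -0.44 ± 0.088 (SE, edgeR adjusted p = 0.000801). SNHG32 (-0.55), SNHG10 (-0.52), SNHG19 (-0.44) and SNHG30 (-0.39) fell as well, and SNHG11 rose (0.38). The call of SNHG32 was lost on leaving out any 1 of 12 of the 18 libraries (edgeR adjusted p up to 0.195), and that of SNHG11 without vehicle replicate 3 or R1881 replicate 1 (edgeR adjusted p up to 0.113). RCC1, which overlaps SNHG3, was at -0.87 ± 0.11 (SE, edgeR adjusted p = 7.92e-06). The fall of the hosts in control cells and the fall with UPF1 siRNA in vehicle share the same 3 vehicle libraries.

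GAS5, ZFAS1, DANCR, SNHG6 and SNHG16 were not called for R1881 with control siRNA. GAS5 was at -0.05 (edgeR adjusted p = 0.715), ZFAS1 at 0.11 (edgeR adjusted p = 0.287), DANCR at -0.15 (edgeR adjusted p = 0.277), SNHG6 at -0.04 (edgeR adjusted p = 0.802) and SNHG16 at -0.03 (edgeR adjusted p = 0.817), and the vehicle and R1881 libraries overlapped in all 5. With scaling by library size alone, which shifts the median of all genes by -0.242 in this comparison, 18 hosts were called lower and none higher, among them GAS5 (-0.29), DANCR (-0.40) and SNHG16 (-0.27), and SNHG11 was no longer called (0.14), nor was it with no filter or with only the groups compared (edgeR adjusted p = 0.154 and 0.142). Under that scaling 26.5% of all calls were higher, beside 53.3% in the scaling used here. Of the 19 snoRNP genes 2 rose and 2 fell in control cells. FBL fell (-0.52), as did DKC1, the pseudouridine synthase of H/ACA snoRNPs (-0.29), while SNU13, which binds box C/D snoRNAs, (0.345) and NAF1, an assembly factor of H/ACA snoRNPs, (0.28) rose. Of the 83 ribosomal protein genes 6 rose and 0 fell, among them RPL22L1 (0.63), but with library size alone 1 rose and 18 fell and the median went from 0.04 to -0.202. DESeq2 called 2 higher and 1 lower, as did edgeR without UPF1 siRNA replicates 1 and 2 in R1881. Of the 28 protein-coding hosts 4 rose and 2 fell (1 and 6 with library size alone), with AP1G1 (0.52) and TPT1 (0.40) higher and SF3B3 (-0.44) lower. Of the 9 NMD factors SMG5 (0.64) and SMG8 (0.33) rose (1 rose and 1 fell with library size alone). Beside the counts of these lists, 20.1% of all genes tested rose and 17.6% fell in the scaling used here.

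With UPF1 siRNA, R1881 lowered 6 hosts and raised 6, beside 20% and 21.6% of all genes tested, and the median was 0.033 beside -0.008. The median was -0.048 to 0.067 with 1 library left out and -0.026 without UPF1 siRNA replicates 1 and 2 in R1881. SNHG31 went from 1.58, 8.30 and 9.74 CPM to 0.290, 1.33 and 0.510, a log2 fold change of -3.20 ± 0.67 (SE, edgeR adjusted p = 0.00131). SNHG26 went from 0.263, 0.474 and 0.577 CPM to 0.116, 0.0700 and 0.0851, a log2 fold change of -2.12 ± 0.61 (SE, edgeR adjusted p = 0.0117). Both are low and variable, the vehicle and R1881 libraries did not overlap in either, and SNHG26 lost its call without UPF1 siRNA replicate 3 in vehicle (edgeR adjusted p = 0.0523). SNHG8 rose from 35.6, 42.1 and 47.1 CPM to 67.5, 64.2 and 62.2, a log2 fold change of 0.64 ± 0.10 (SE, edgeR adjusted p = 0.000117). SNHG11 rose from 13.5, 14.1 and 12.8 CPM to 21.0, 20.3 and 19.1, a log2 fold change of 0.58 ± 0.10 (SE, edgeR adjusted p = 0.000334). In both hosts every R1881 library lay above every vehicle library. SNHG17 (0.49), SNHG7 (0.35), SNHG20 (0.34) and SNHG16 (0.26) also rose, and SNHG19 (-0.46), SNHG3 (-0.42), SNHG30 (-0.39) and DANCR (-0.35) fell. Without replicates 1 and 2 of the R1881 group, 5 of the 12 calls were made: SNHG31 (-3.67), SNHG19 (-0.69), SNHG30 (-0.46), SNHG8 (0.55) and SNHG17 (0.50). SNHG11 was then at 0.48 (edgeR adjusted p = 0.0617), and SNHG3 at -0.36 (edgeR adjusted p = 0.207). SNHG26 (-2.25), DANCR (-0.435), SNHG16 (0.21), SNHG7 (0.19) and SNHG20 (0.14) were not called either (edgeR adjusted p = 0.176, 0.111, 0.311, 0.532 and 0.599). Leaving out 1 library was enough to lose SNHG3 (R1881 replicate 2), SNHG16 (vehicle replicate 1), DANCR (vehicle replicate 3), SNHG7 (vehicle replicate 3 or R1881 replicate 2) and SNHG20 (vehicle replicate 2 or R1881 replicate 1 or 2), with edgeR adjusted p up to 0.0619, 0.0661, 0.0538, 0.0817 and 0.0605. With library size alone SNHG16, SNHG7 and SNHG20 were not called either (edgeR adjusted p = 0.14, 0.126 and 0.0958).

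With RCOR1 siRNA, R1881 lowered 6 hosts and raised 0, beside 14.9% and 16.3% of all genes tested, with a median of -0.155 beside 0.024. No host was higher at an unadjusted p under 0.05 in edgeR, with no share of all genes given here. DESeq2 called 0 higher and 6 lower. SNHG25, a short host of SNORD104 and SNORA50C, went from 3.74, 4.19 and 4.82 CPM to 2.86, 1.93 and 2.60, a log2 fold change of -0.77 ± 0.23 (SE, edgeR adjusted p = 0.0191). SNHG3 went from 42.0, 37.4 and 36.3 CPM to 25.4, 22.8 and 22.6, a log2 fold change of -0.71 ± 0.12 (SE, edgeR adjusted p = 0.000184). SNHG19 went from 31.0, 35.5 and 29.5 CPM to 24.4, 18.3 and 22.1, a log2 fold change of -0.56 ± 0.12 (SE, edgeR adjusted p = 0.00144). In these hosts all R1881 libraries lay below all vehicle libraries. SNHG30, host of SNORD7, went from 15.2, 16.3 and 15.8 CPM to 11.2, 12.9 and 11.7, a log2 fold change of -0.41 ± 0.086 (SE, edgeR adjusted p = 0.0018). DANCR (-0.34) and SNHG10 (-0.31) fell as well. SNHG25 lost its call without RCOR1 siRNA replicate 3 in vehicle or 2 in R1881, DANCR without replicate 2 in either medium, and SNHG10 without replicate 1 or 2 in either medium or UPF1 siRNA replicate 2 in R1881, so that without RCOR1 siRNA replicate 2 in R1881 3 hosts were called. SNHG3, SNHG19 and SNHG30 were lower in all 3 siRNA arms, which share no libraries. The share of all genes lower in all 3 arms is not given here. SNHG30 fell by nearly the same amount in each, -0.39 with control, -0.39 with UPF1 and -0.41 with RCOR1 siRNA, from 18.1, 17.6 and 15.4 to 13.4, 12.5 and 13.1 CPM in control cells and from 18.1, 17.7 and 17.5 to 13.5, 13.9 and 13.3 with UPF1 siRNA. With no filter on low counts SNHG30 was called in none of the arms (edgeR adjusted p = 0.0519, 0.0841 and 0.0631), and with UPF1 siRNA not with the GC offset either (0.127).

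**Figure D5:**
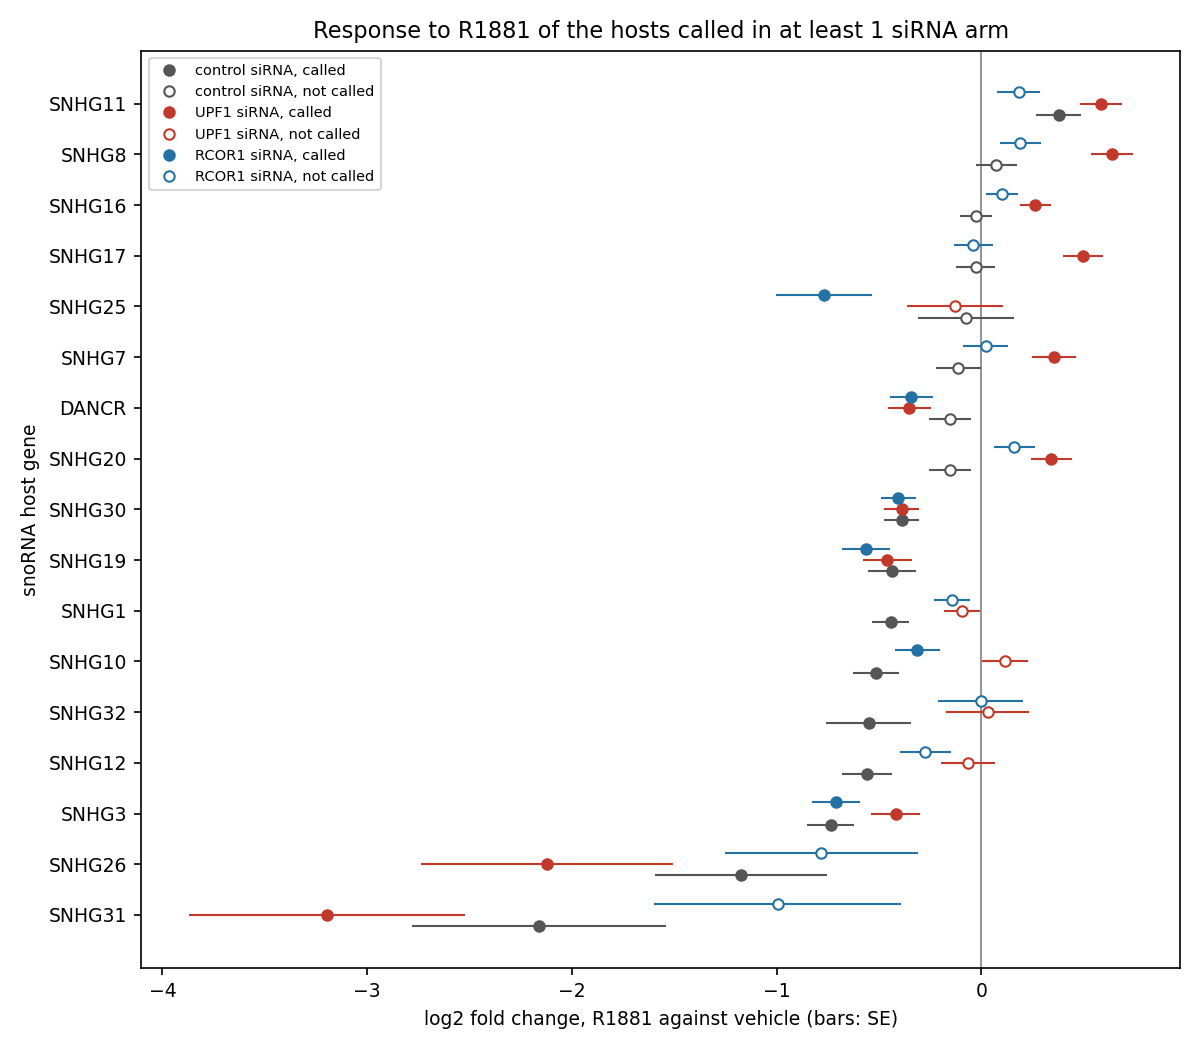
The 17 hosts called for R1881 against vehicle in at least 1 siRNA arm are listed on the vertical axis, with the log2 fold change on the horizontal axis, points coloured by siRNA arm (filled where called, open where not) and bars for SE. SNHG3, SNHG19 and SNHG30 have filled points below 0 in all 3 arms, and SNHG8 and SNHG17 have a filled point above 0 with UPF1 siRNA and open points near 0 with the others.

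The difference between the R1881 responses with UPF1 and with control siRNA was tested as an interaction. It was called for 2 hosts, both higher, beside 1.35% of all genes tested that were higher and 1.37% that were lower; 0 hosts were lower in edgeR, also at an unadjusted p under 0.05, and 0 in DESeq2, which called 3 higher. SNHG10, host of the Cajal body RNA SCARNA13, had an interaction of 0.63 ± 0.15 (SE, edgeR adjusted p = 0.0416). It stood at 18.9, 21.8 and 18.7 CPM in vehicle and at 13.3, 12.5 and 15.8 in R1881 with control siRNA, and at 14.6, 14.8 and 15.9 and 17.1, 16.6 and 15.3 with UPF1 siRNA. R1881 thus went with a lower level in control cells (-0.52), while the UPF1 siRNA libraries overlapped between media (0.12). SNHG8 had an interaction of 0.56 ± 0.14 (SE, edgeR adjusted p = 0.0467), with 78.9, 83.0 and 88.4 CPM in vehicle and 92.1, 83.4 and 87.5 in R1881 with control siRNA, which overlap, and the rise with UPF1 siRNA given above. Both calls were near the threshold. SNHG10 lost its call on leaving out any 1 of 12 of the 18 libraries (edgeR adjusted p up to 0.118) and SNHG8 on leaving out any 1 of 13 (up to 0.123). Without UPF1 siRNA replicates 1 and 2 in R1881 neither was called (edgeR adjusted p = 0.417 and 0.391), at 0.54 and 0.51. The median interaction of the hosts was 0.195 beside 0.003 over all genes, with 9 hosts higher at an unadjusted p under 0.05. The share of all genes at that unadjusted threshold is not given here, so whether 9 is particular to the hosts cannot be told. The median was 0.113 without control replicate 2 in vehicle and 0.096 without UPF1 siRNA replicates 1 and 2 in R1881.

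With RCOR1 siRNA few of all genes tested were called, and few of the hosts. In vehicle 2 rose and 0 fell, beside 5.31% and 6.21% of all genes tested, with a median of -0.04 beside -0.007. In R1881 2 rose and 0 fell, beside 5.06% and 7.33%, with a median of 0.074 beside -0.009. With 1 library left out these medians were -0.067 to 0.036 in vehicle, positive without control replicate 2 or RCOR1 siRNA replicate 3, and 0.052 to 0.135 in R1881, the highest without control replicate 1. At an unadjusted p under 0.05 edgeR had 2 lower in vehicle and 0 in R1881, with no share of all genes given here. DESeq2 called 0 lower in either medium. SNHG11 was higher in both, at 12.7, 14.7 and 13.5 CPM in vehicle and 14.96, 15.6 and 15.9 CPM in R1881. Its groups did not overlap with control siRNA, and the log2 fold changes were 0.57 ± 0.11 (SE, edgeR adjusted p = 0.00255) and 0.38 ± 0.11 (SE, edgeR adjusted p = 0.0297). The second was lost without any 1 of the RCOR1 siRNA libraries or of control replicates 2 and 3 in R1881 (edgeR adjusted p up to 0.107), without UPF1 siRNA replicates 1 and 2 in R1881 (0.0667) and narrowly with DESeq2 (0.0513). ZFAS1 rose in vehicle to 76.0, 86.0 and 80.7 CPM, above all controls, a log2 fold change of 0.37 ± 0.075 (SE, edgeR adjusted p = 0.00414), while in R1881 it was at 0.07 (edgeR adjusted p = 0.605) with 74.4, 67.1 and 71.2 CPM. SNHG5 rose in R1881, to 35.6, 40.3 and 39.2 CPM, a log2 fold change of 0.45 ± 0.10 (SE, edgeR adjusted p = 0.00924). When only the groups compared entered the fit, edgeR called 0 hosts in either medium (adjusted p = 0.0688 for SNHG11 and 0.0925 for ZFAS1 in vehicle). GAS5, at 92.5, 102 and 94.1 CPM in vehicle and 86.8, 78.9 and 80.2 in R1881, was at 0.28 (edgeR adjusted p = 0.0501) and 0.09 (edgeR adjusted p = 0.564). SNHG6, at 27.5, 34.4 and 31.9 and 32.9, 27.9 and 30.0 CPM, was at 0.34 (edgeR adjusted p = 0.0612) and 0.34 (edgeR adjusted p = 0.063).

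SNHG16, SNHG4, SNHG1 and DANCR, which fell with UPF1 siRNA, were not called with RCOR1 siRNA. SNHG16 stood at 198, 198 and 195 CPM in vehicle and 219, 205 and 209.9 in R1881, with log2 fold changes of -0.11 and 0.01. SNHG4 stood at 106, 95.2 and 100.3 and 93.8, 96.5 and 100 CPM, with 0.20 and 0.35. SNHG1 stood at 74.2, 68.0 and 76.5 and 67.6, 64.7 and 65.6 CPM, with -0.07 and 0.23. DANCR stood at 139.9, 156 and 133 and 119, 101 and 117 CPM, with 0.04 and -0.15. SNHG4 lay above all controls in both media and SNHG1 did in R1881, SNHG16 lay just below all controls in vehicle, and DANCR overlapped in both media, all at edgeR adjusted p over the threshold. The other hosts lower in both media with UPF1 siRNA were not called with RCOR1 siRNA either. In R1881, SNHG3 lay below all controls (22.6 to 25.4 against 26.9 to 29.4 CPM) and SNHG12 above them (6.02 to 6.84 against 5.12 to 5.96 CPM). Both overlapped in vehicle, and SNHG8, SNHG14 and SNHG19 overlapped in both media. The comparisons with UPF1 and with RCOR1 siRNA share the control libraries, and the responses to the 2 siRNAs were not compared with each other by a test. The RCOR1 siRNA by R1881 interaction was called for 0 hosts, beside 0.227% of all genes tested that were higher and 0.539% that were lower. At an unadjusted p under 0.05 edgeR had 2 hosts higher and 1 lower, with no share of all genes given here. DESeq2 called 0, and the median was 0.072 beside 0.005 over all genes. That median was 0.014 without control replicate 2 in vehicle and 0.118 without control replicate 1 in R1881, the range with 1 library left out.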

How the data were processed

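RNA of 18 LNCaP libraries (500 ng each, ribosomal RNA depleted) was sequenced, and the authors deposited raw read counts per gene for all of them in 1 table. The submitters' processing notes name bcl2fastq 2.20, STAR 2.7.9a, featureCounts of Subread 1.6.4 and GRCh38.p7; for the annotation release and the strand setting, nothing is given in the sources used here. Totals were 10299607 to 17338235 counts, which limits the precision of low hosts such as SNHG26. Genes were matched by Ensembl identifier to GENCODE 29 (GRCh38), and promoters came from RefSeq (GRCh38.p14). In R 4.3.3, genes were filtered with filterByExpr, scaled by TMM and tested with the quasi-likelihood F test of edgeR 4.0.16 in 1 fit over all 18 libraries with 1 mean per group. P-values were adjusted by the Benjamini-Hochberg method over all 15390 genes, with a threshold of 0.05, in 9 contrasts, 2 of them interactions. Each SE was derived from the log2 fold change and its F statistic (size of the change over the root of F). The procedure was tested on simulated data.

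Values per library are given for GAS5, ZFAS1, DANCR, SNHG1, SNHG6 and SNHG16 and for the 4 called hosts with the largest change in each contrast; a few others were chosen after their values were seen. From each comparison list at most 4 called genes with the largest change are named. The hosts, lists and alternatives were chosen with earlier results of these data known. The alternatives were DESeq2 1.42.0, its size factors in edgeR, library size alone, no filter on low counts, only the groups compared, an offset for GC content (known for 98.8% of genes tested), omission of UPF1 siRNA replicates 1 and 2 in R1881 together, and omission of each library in turn. Replicates are biological triplicates per the labels, numbered here in order of deposit.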

Additional observations from a re-analysis of the deposited data

Results flagged for a closer look

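In SNHG8 and SNHG10 the response to R1881 differed between the UPF1 siRNA and control siRNA arms in a test of the difference itself. For SNHG8 the difference of the log2 fold changes was 0.564, with R1881 raising it in UPF1 siRNA cells (0.64) and a value of 0.07 in control cells. For SNHG10 it was 0.63, with a fall in control cells (-0.52) and a value of 0.12 in UPF1 siRNA cells. Both passed the threshold of edgeR narrowly (adjusted p = 0.0467 and 0.0416), and neither passed without UPF1 siRNA replicates 1 and 2 in R1881.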

How the results depend on the processing

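The number of hosts called with UPF1 siRNA in vehicle, 14, was 12 to 15 under the 7 alternatives and 11 to 15 with 1 library left out. In R1881 the 15 became 8 without UPF1 siRNA replicates 1 and 2 together, and 12 to 16 with 1 library left out. For R1881 with control siRNA the 10 became 18, all lower, with library size alone, and 8 to 10 with 1 library left out. With UPF1 siRNA the 12 became 7 with no filter and 5 without replicates 1 and 2, and 9 to 13 with 1 library left out. With RCOR1 siRNA the 6 became 12, all lower, with library size alone, and 3 to 7 with 1 library left out, the 3 without RCOR1 siRNA replicate 2 in R1881. For RCOR1 siRNA in vehicle the 2 became 1 with no filter, 0 with only the groups compared and 4 with the GC offset, and 2 to 3 with 1 library left out. In R1881 the 2 became 5 with library size alone, 1 with no filter, 0 with only the groups compared, 4 with the GC offset, 1 without UPF1 siRNA replicates 1 and 2, and 1 to 4 with 1 library left out; the lowest came without control replicate 2 or any RCOR1 siRNA replicate in R1881 and the highest without UPF1 siRNA replicate 3 in vehicle. For the UPF1 siRNA by R1881 interaction the 2 became 5 with library size alone, 1 with no filter, 0 with only the groups compared, 4 with the GC offset, 0 without UPF1 siRNA replicates 1 and 2, and 0 to 3 with 1 library left out. The RCOR1 siRNA interaction had 0 throughout. The cause of these differences was not tested. The share of all genes called under each alternative is not given here. Changes of the hosts therefore cannot be told apart from changes over all genes.

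Of 63 called values of single hosts, 28 were called in all 25 alternatives and 35 in fewer. No called value changed sign. Values called in neither fit changed sign 236 times over the 28 hosts, 9 contrasts and 25 alternatives, the largest being SNHG31 with UPF1 siRNA in vehicle (0.102, and -0.323 without UPF1 siRNA replicate 3). With library size alone, the host median moved to -0.378 (R1881, control siRNA), -0.349 (R1881, RCOR1 siRNA), -0.01 (UPF1 siRNA in R1881) and 0.346 (UPF1 siRNA interaction), with shifts of the all-gene median of -0.242, -0.192, 0.118 and 0.15. That scaling moved the share of all calls that were higher from 53.3 to 26.5%, 51.9 to 37.3% and 52.3 to 29.3% for R1881 with control, UPF1 and RCOR1 siRNA, from 52.8 to 67.1% and 40.8 to 67.7% for UPF1 and RCOR1 siRNA in R1881, and from 49.6 to 75.2% and 29.7 to 50.9% for the interactions. For the UPF1 siRNA interaction it was 17.2% with no filter and 31.6% without replicates 1 and 2, and for that of RCOR1 siRNA 40.4% with the GC offset. No paired analysis was possible because the labels give no replicate number that groups share.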
